A study of Mus musculus with 24 samples.

Results

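The comparison described here sets the hypothalamus of sleep-restricted mice at zeitgeber time 7 (ZT7, hours after lights on) against ZT1 under the same schedule. It rests on 6 of the 24 arrays of the series, 3 at ZT7 and 3 at ZT1, chosen by the condition and time in their labels. All arrays came from mediobasal hypothalamus (MBH) of mice whose background strain is spelled C57BL76J in the labels, with 3 mice at each time in each condition. Mice under timed sleep restriction (TSR) were handled gently so that they stayed awake between ZT0 and ZT6 on 5 days, slept freely for 2 days, and were handled in the same way for 5 more days. Control mice (CON) were left undisturbed in parallel, and their 3 arrays at ZT7 and 3 at ZT1 serve here only to set the same interval beside that of TSR. ZT1 therefore falls inside the daily handling window and ZT7 after it. The sources used here do not give the day of tissue collection or the age and sex of the mice. Unless only the arrays compared are named, p-values rest on the scatter within all 8 groups of the series, ZT13 and ZT19 included. Some of that scatter may be technical. With only the 6 TSR arrays compared, 0 genes passed an adjusted p of 0.05 in limma.

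The mediobasal hypothalamus holds the arcuate and ventromedial nuclei, whose neurons regulate feeding, energy balance and pituitary hormones. Like other tissues it carries a circadian clock, in which ARNTL and CLOCK activate Per, Cry, Nr1d and output genes through E-boxes in their promoters. PER and CRY proteins then block that activation, NR1D1 and NR1D2 repress genes with ROR elements, and DBP, TEF and HLF act on D-boxes. Prolonged waking is known in rodent forebrain to raise immediate early genes, which respond to neuronal activity, and chaperones of the endoplasmic reticulum such as Hspa5.

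Promoter sequences, each with a clock motif, are shown for 5 genes of the clock and plasma protein results below. They were taken from RefSeq on build GRCm38.p6, 250 bases before to 50 bases after the annotated start, on the gene's own strand. Capitals mark E-boxes (CACGTG), D-boxes (TTATGTAA on either strand; TTACGTAA was searched too) and ROR/REV-ERB sites (AGGTCA on either strand), and no marked stretch overlaps another.
Per1, chr11:69098699-69098998, plus strand: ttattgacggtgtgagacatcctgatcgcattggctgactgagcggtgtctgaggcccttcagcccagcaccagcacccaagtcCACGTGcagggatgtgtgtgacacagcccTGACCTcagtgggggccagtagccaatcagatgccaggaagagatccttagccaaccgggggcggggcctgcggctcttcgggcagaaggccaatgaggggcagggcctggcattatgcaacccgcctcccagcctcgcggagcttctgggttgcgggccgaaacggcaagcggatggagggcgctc
Ciart, chr3:95882179-95882478, minus strand: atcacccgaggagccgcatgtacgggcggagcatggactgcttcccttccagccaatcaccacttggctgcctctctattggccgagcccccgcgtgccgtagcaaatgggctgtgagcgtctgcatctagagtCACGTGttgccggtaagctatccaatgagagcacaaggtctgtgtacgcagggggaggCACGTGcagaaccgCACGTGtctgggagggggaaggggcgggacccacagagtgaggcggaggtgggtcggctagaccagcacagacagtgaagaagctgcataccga
Per3, chr4:151044616-151044915, minus strand: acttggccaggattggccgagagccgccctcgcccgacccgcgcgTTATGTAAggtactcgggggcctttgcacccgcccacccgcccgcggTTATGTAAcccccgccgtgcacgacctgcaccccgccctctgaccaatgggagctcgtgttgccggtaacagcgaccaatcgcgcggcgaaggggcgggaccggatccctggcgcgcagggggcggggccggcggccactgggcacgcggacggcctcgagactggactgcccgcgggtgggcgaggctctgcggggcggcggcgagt
Bhlhe41, chr6:145865371-145865670, minus strand: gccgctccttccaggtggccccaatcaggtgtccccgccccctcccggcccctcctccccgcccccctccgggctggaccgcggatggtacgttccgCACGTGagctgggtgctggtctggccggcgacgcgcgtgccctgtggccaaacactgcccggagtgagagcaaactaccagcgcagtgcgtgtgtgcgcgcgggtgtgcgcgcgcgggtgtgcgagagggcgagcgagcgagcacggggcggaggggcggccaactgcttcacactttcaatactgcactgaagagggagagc
Alb, chr5:90460620-90460919, plus strand: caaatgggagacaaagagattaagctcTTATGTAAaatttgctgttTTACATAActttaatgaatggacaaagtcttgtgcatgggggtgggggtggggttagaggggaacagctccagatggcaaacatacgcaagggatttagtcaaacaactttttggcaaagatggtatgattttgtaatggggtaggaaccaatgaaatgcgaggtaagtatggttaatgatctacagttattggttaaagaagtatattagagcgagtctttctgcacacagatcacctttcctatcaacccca
Of 32817 promoters of this length in the table, 7.15% held CACGTG, 0.935% held TTATGTAA, 0.119% held TTACGTAA and 16.3% held AGGTCA. Among 13 tested core clock genes with a promoter in the table, an E-box stood in Per1, Cry1 and Ciart, a D-box in Per3, and AGGTCA in Arntl, Clock, Per1 and Nr1d2. A gene counted here if any of its promoters matched, whereas the percentages are of single promoters and are no like measure. Per1 has 2 promoters, and the one not shown held no match. The promoters of Dbp, Nr1d1, Cry2, Apoa1 and Serpina1c, which those results name too, held none of these motifs. The 5 shown therefore do not stand for the clock and plasma protein genes as a group. All matches describe the letters of the window and nothing about binding.

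The files hold log2 signals of 35556 probe sets per array, and 11871 named genes passed the filter on low levels. The third TSR ZT1 array stood apart from the other 5, with an interquartile range of 2.18 log2 units and a median Spearman correlation with the other arrays of 0.863. In the other 5 TSR arrays of the comparison the interquartile range ran between 3.06 and 3.27 and the correlation between 0.983 and 0.985. Another 3 arrays of the series, at times not compared here, were as narrow. The median residual SD over genes was 0.361 log2 units with all 24 arrays and 0.111 with the 20 others. The 20-array fit is therefore described gene by gene, and 24-array values are given for the counts and for some genes. The fit of 20 arrays leaves 3 arrays at ZT7 and 2 at ZT1 in TSR, and the words rose and fell below refer to an adjusted p under 0.05 in that fit unless all 24 arrays are named. The tissue label was checked against hypothalamic genes. Oxt, Avp and Trh were above the filter of 5.86 log2 units in all 12 arrays, whereas the probe sets of Pomc, Hcrt, Pmch, Crh and Vip averaged below it and were not tested. In dissected tissue, fewer cells of a type and less RNA per cell cannot be told apart.

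With all 24 arrays, 1 of 11871 genes (0.00842%) differed between ZT7 and ZT1 in TSR at an adjusted p under 0.05 in limma, and 353 did at an unadjusted p under 0.05 (2.97%). That gene was Acta2, the smooth muscle actin of arterioles and other mural cells. Leaving out the narrow TSR ZT1 array alone gave 5 genes, 1 higher and 4 lower, and leaving out all 4 narrow arrays gave 1402 (11.8%), with 3410 at an unadjusted p under 0.05 (28.7%). Of those 1402, 269 rose (2.27% of genes tested) and 1133 fell (9.54%). The split depended on scaling, since quantile normalization of the same 20 arrays gave 675 higher and 651 lower, a share of 50.9% higher against 19.2%. The median difference over all genes was 0.19 with 24 arrays, -0.08 with 20 and -0.001 after quantile normalization of the 20, and gene groups are read against these medians. Of the 1402, 668 had the same sign with all 24 arrays. In that fit 0 members of every list described here passed in TSR, apart from Acta2 among the endothelial and mural markers, and the named genes other than Acta2 had limma adjusted p of 0.412 or more. The 24-array differences of genes named below were 1.20 ± 0.29 for Pde10a, 0.62 ± 0.20 for Drd1, 1.88 ± 0.65 for Ano3, 1.33 ± 0.34 for Robo2, 0.60 ± 0.20 for Npy and 1.17 ± 0.42 for Tac1. For Gnrh1, Vipr2 and Gfap, all lower at ZT7, they were -0.70 ± 0.18, -0.60 ± 0.20 and -0.18 ± 0.52. Both remaining TSR ZT1 arrays bear on the count, which was 242 without TSR ZT1 replicate 1 and 313 without TSR ZT1 replicate 2.

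Acta2 read 7.06, 6.81 and 7.02 log2 units at ZT7, against 6.23, 5.96 and 6.11 at ZT1 in TSR. All ZT7 values lay above all ZT1 values, the narrow array included. The difference was 0.86 ± 0.12 (moderated SE here and below) with all 24 arrays at a limma adjusted p of 0.0104, and the same size with 20 arrays at an adjusted p of 0.000159. In CON mice it read 6.48, 6.50 and 6.73 at ZT7, against 6.22, 6.22 and 6.37 at ZT1, a difference of 0.30 ± 0.10 that did not pass in 20 arrays (adjusted p = 0.0644). The TSR change exceeded the CON change by 0.57 ± 0.16 (limma adjusted p = 0.0168, 20 arrays), against an adjusted p of 0.45 with 24 arrays. Its limma adjusted p in the larger fit was 0.174 without TSR ZT7 replicate 1 and 0.148 without TSR ZT7 replicate 3. It was 0.172 without TSR ZT1 replicate 2. Over all alternatives in which Acta2 was tested, its limma adjusted p ranged between 4.01e-09 with array weights and 0.91 with only the 6 arrays compared. Among 11 tested endothelial and mural markers Acta2 alone rose and 0 fell, against 2.27% and 9.54% of all genes. The list median was 0.22 in 20 arrays. Quantile normalization of the 20 arrays put 4 of the 11 past the threshold, all higher.

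Several of the largest rises were in genes of forebrain neurons. Among 13 tested striatal markers 5 rose and 0 fell in 20 arrays, against 2.27% and 9.54% of all genes. The counts were 9 and 0 after quantile normalization, and the list median was 0.24 without it. All ZT7 values lay above all ZT1 values in 8 of the 13, against 9.11% of all genes. Over all genes 1081 were separated in that direction and 354 in the other. The narrow array averaged 6.75 over the striatal list, against 7.44 and 7.51 in the other ZT1 arrays. Where it is the lowest of the 6 arrays, separation from it adds nothing to a rise. Pde10a, the phosphodiesterase of striatal medium spiny neurons, read 8.59, 8.71 and 8.65 at ZT7, against 7.67, 7.84 and 6.84 at ZT1. The ZT7 values stood clear of all 3 ZT1 values, and the difference was 0.89 ± 0.09 in 20 arrays (limma adjusted p = 7.44e-06). Drd1, a dopamine receptor, read 7.67, 7.47 and 7.42 at ZT7, against 6.65, 6.78 and 7.27 at ZT1, a rise of 0.80 ± 0.12 (limma adjusted p = 0.000382). For Drd1 the narrow array was the highest of the ZT1 values and still below ZT7. Ppp1r1b, the dopamine-regulated phosphatase inhibitor DARPP-32, read 7.30, 7.23 and 7.25 at ZT7, against 6.59, 6.53 and 6.23 at ZT1. Its difference of 0.81 ± 0.16 gave the second smallest adjusted p with all 24 arrays, 0.412, and 0.70 ± 0.13 in 20 arrays passed (adjusted p = 0.00218).

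The 12 largest rises with no overlap between the groups were those of Acta2, Pde10a and Drd1 with Ano3, Meis2, Robo2, Foxp2, Necab1, Strip2, Akap5, Unc13c and Acvr1c. Ano3, an anoctamin of striatal neurons, read 7.62, 7.89 and 7.61 at ZT7, against 6.43, 6.31 and 4.75 at ZT1, and rose by 1.34 ± 0.19 (limma adjusted p = 0.000295). A second probe set of Ano3 rose by 1.09. Meis2, a homeobox transcription factor of striatal and other forebrain neurons, read 8.55, 8.76 and 8.78 at ZT7, against 7.63, 7.71 and 5.84 at ZT1. Its rise of 1.03 ± 0.10 (adjusted p = 4.44e-06, limma) left the narrow array far below the other ZT1 arrays. Robo2, an axon guidance receptor, read 8.99, 8.99 and 8.92 at ZT7, against 7.98, 8.11 and 6.81 at ZT1, and Foxp2, a forkhead factor of deep cortical layers, thalamus and striatum, read 7.66, 7.68 and 7.54 at ZT7, against 6.77, 6.67 and 6.31 at ZT1. Robo2 rose by 0.92 ± 0.08 and Foxp2 by 0.91 ± 0.09, with limma adjusted p of 1.77e-06 and 4.32e-06. Necab1, a neuronal calcium-binding protein, rose by 0.85 ± 0.07, and Akap5, which anchors protein kinase A at synapses, by 0.75 ± 0.09. Acvr1c, a receptor of the activin family, rose by 0.73 ± 0.12 but lay under the filter level of 5.86 in all 3 ZT1 arrays.

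In CON mice the interval ran the other way for several of these genes. Meis2 fell by 1.94 ± 0.09 there, at 6.77, 6.69 and 6.37 at ZT7, against 8.53, 8.60 and 8.52 at ZT1. Robo2 fell by 0.89 ± 0.07, Foxp2 by 0.79 ± 0.08, Necab1 by 0.73 ± 0.06 and Unc13c, a presynaptic priming protein, by 0.99 ± 0.14 in CON. Pde10a, Drd1 and Ppp1r1b did not pass in CON, with differences of 0.10 ± 0.08, -0.12 ± 0.11 and -0.22 ± 0.11. The difference between the conditions passed with 20 arrays for each of these 8 genes, and with all 24 arrays for Meis2 and Foxp2. Of the 13 striatal markers, 4 fell in CON and 0 rose, against 8.96% and 4.48% of all genes. Their mean level per array ran between 7.82 and 7.88 in TSR at ZT7, between 6.75 and 7.51 in TSR at ZT1, between 7.22 and 7.23 in CON at ZT7 and between 7.44 and 7.49 in CON at ZT1. The striatal mean includes Meis2, Pde10a, Drd1 and Ppp1r1b, so its movement with them is no separate observation. The part of a region beside the hypothalamus in these results was not tested. Of 9 tested markers of cortex and thalamus, Foxp2 and Tcf7l2 rose and 0 fell in TSR, against 2.27% and 9.54% of all genes. Tcf7l2, a Wnt effector strong in thalamus, read 7.85, 7.96 and 8.04 at ZT7, against 7.49, 7.53 and 6.73 at ZT1, and rose by 0.44 ± 0.09 (limma adjusted p = 0.00356).

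**Figure D1:**
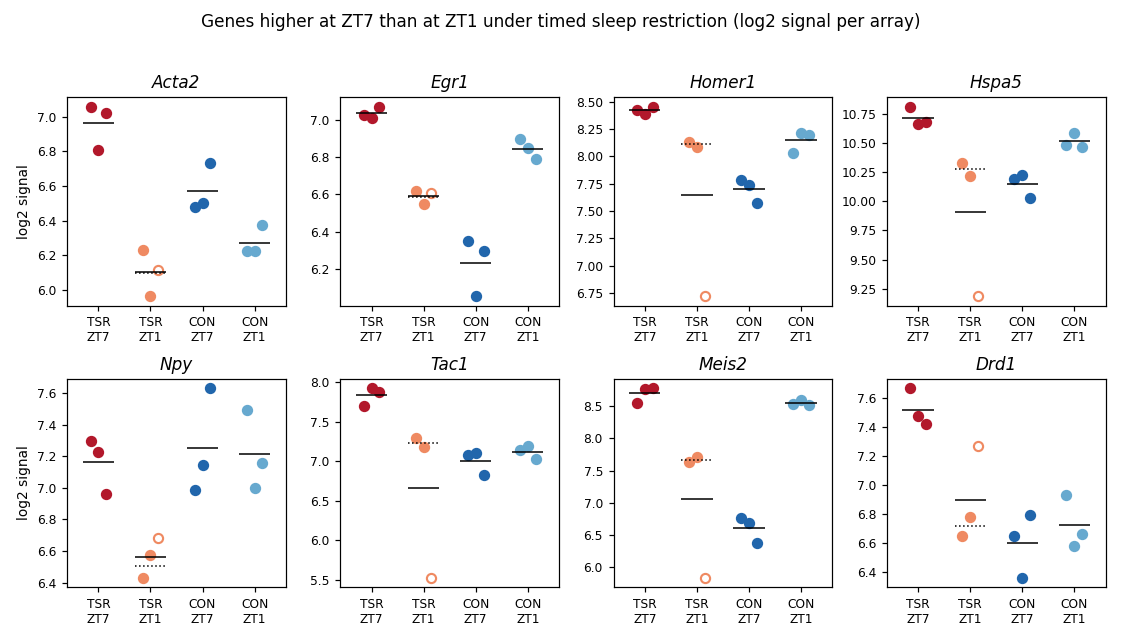
Log2 signal (vertical axis, a separate scale in each panel) of 8 genes in each array of TSR ZT7, TSR ZT1, CON ZT7 and CON ZT1, from left to right. Filled circles are arrays, the open circle is the narrow TSR ZT1 array, solid lines are means of 3 arrays and the dotted line is the mean of the other 2 TSR ZT1 arrays. In all 8 panels the 3 TSR ZT7 arrays lie above the 3 TSR ZT1 arrays, while Meis2, Egr1, Homer1 and Hspa5 are lower at ZT7 than at ZT1 in CON. The open circle is the lowest TSR array for Homer1, Hspa5, Tac1 and Meis2, where separation from it adds nothing.

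Immediate early genes, switched on within minutes by synaptic activity, were measured for 25 members, of which 17 passed the filter and were tested. In 20 arrays 3 of the 17 rose, 1 fell and 13 did not pass, against 2.27% and 9.54% of all genes, with a list median of 0.15. Egr1, a zinc finger factor, read 7.03, 7.01 and 7.07 at ZT7, against 6.62, 6.55 and 6.61 at ZT1. Here the narrow array lay between the other ZT1 arrays, and the difference was 0.45 ± 0.09 with 20 arrays (limma adjusted p = 0.00447) and 0.44 ± 0.14 with 24 (adjusted p = 0.809). Homer1, whose short splice form is activity-induced, read 8.43, 8.39 and 8.45 at ZT7, against 8.13, 8.09 and 6.72 at ZT1, a rise of 0.31 ± 0.08 (limma adjusted p = 0.016). The probe set does not tell its splice forms apart. Egr3 read 7.13, 7.18 and 7.17 at ZT7, against 6.67, 6.64 and 7.99 at ZT1, and its rise of 0.50 ± 0.09 in 20 arrays was 0.06 ± 0.27 with the narrow array, which was the highest of the 6. Jun, a subunit of AP-1, fell by 0.35 ± 0.11, whereas with 24 arrays its difference was 0.13 ± 0.35. Arc and Nr4a1 did not pass, with differences of 0.21 ± 0.12 and 0.06 ± 0.09, and Fos and Junb lay below the filter. In CON, 6 of the 17 fell and 1 rose over the same interval, against 8.96% and 4.48% of all genes. Egr1 was 6.35, 6.06 and 6.30 at ZT7, against 6.90, 6.85 and 6.79 at ZT1, and fell by 0.61 ± 0.08. Its TSR change exceeded the CON change by 1.05 ± 0.20 with all 24 arrays (limma adjusted p = 0.0299). In 20 arrays the TSR change was above the CON change for 7 immediate early genes and below it for 1, against 6.07% and 9.97% of all genes. The list median with all 24 arrays was 0.21, close to the 0.19 over all genes.

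Of 22 chaperones and stress genes of the endoplasmic reticulum 2 rose and 1 fell, against 2.27% and 9.54% of all genes. Hspa5, the chaperone BiP, read 10.81, 10.66 and 10.68 at ZT7, against 10.33, 10.22 and 9.19 at ZT1, with all ZT7 values above all ZT1 values. It rose by 0.44 ± 0.07 (limma adjusted p = 0.000682), with a difference of 0.80 ± 0.36 in 24 arrays. Pdia6, a disulfide isomerase, rose by 0.22 ± 0.07, and Atf4, a transcription factor of the stress response, fell by 0.33 ± 0.10. The list median was 0.01 in 20 arrays and 0.11 after quantile normalization, which put 5 members higher and 1 lower. Of 19 heat shock genes 2 rose and 1 fell, against the same shares of all genes, with a list median of -0.03. After quantile normalization 5 rose and 1 fell, and the median was 0.07. Hsp90aa1, a cytosolic chaperone, read 12.46, 12.46 and 12.41 at ZT7, against 12.20, 12.27 and 11.57 at ZT1, and rose by 0.21 ± 0.04 (limma adjusted p = 0.00406). One of its 2 other probe sets gave 0.20 and the other 0.06. Hspa4l, a relative of HSP110, rose by 0.25 ± 0.06, and Cryab, a small heat shock protein of oligodendrocytes and astrocytes, fell by 0.51 ± 0.10. Over the same hours in CON, 14 of the 19 heat shock genes and 6 of the 22 genes of the endoplasmic reticulum fell, and 0 rose. Over all genes 8.96% fell and 4.48% rose in CON. Hspa5 was lower in CON at ZT7 by 0.36 ± 0.06, and its TSR change exceeded the CON change by 0.81 ± 0.09 (limma adjusted p = 8.12e-06, 20 arrays). For 8 heat shock genes and 4 of the endoplasmic reticulum list the TSR change was above the CON change, and for 0 below it, against 6.07% and 9.97% of all genes. After quantile normalization of the 20 arrays it was above for 13 and 10 and below for 0.

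Neuropeptide genes changed in both directions. Npy, the appetite-stimulating peptide of arcuate neurons, read 7.29, 7.23 and 6.96 at ZT7, against 6.43, 6.58 and 6.68 at ZT1 in TSR. Its groups did not overlap, and it rose by 0.66 ± 0.18 (limma adjusted p = 0.0222). It was the only 1 of 15 tested appetite genes to pass, against 4 higher after quantile normalization of the 20 arrays, and Cartpt, an anorexigenic peptide of the same nucleus, differed by -0.01 ± 0.13. Tac1, the precursor of substance P, read 7.70, 7.92 and 7.88 at ZT7, against 7.29, 7.18 and 5.53 at ZT1, and rose by 0.60 ± 0.14 (limma adjusted p = 0.00827). Tac2, the neurokinin B precursor of arcuate neurons that drive GnRH release, read 8.62, 8.80 and 8.77 at ZT7, against 8.31, 8.24 and 6.59 at ZT1, a rise of 0.45 ± 0.14. Pdyn, the dynorphin precursor of the same neurons, read 7.21, 7.03 and 7.06 at ZT7, against 6.66, 6.58 and 6.50 at ZT1, and rose by 0.49 ± 0.12. In all 4 peptide genes every ZT7 value was above every ZT1 value. For Tac1, Tac2 and Pdyn the narrow array was the lowest TSR array, so separation from it adds nothing to the rise. For Npy it was the highest of the ZT1 values. Sim1, a transcription factor of the paraventricular nucleus, rose by 0.33 ± 0.08 in TSR and by 0.30 ± 0.07 in CON. Striatal markers rose in the same arrays, as given above, and their part in these peptide results was not tested. Of 13 tested arcuate and ventromedial markers 3 rose (Tac1, Tac2 and Pdyn) and 1 fell (Adcyap1). Over all genes 2.27% rose and 9.54% fell, and the list median was 0.18. Of 7 paraventricular and supraoptic markers 1 rose and 1 fell, against the same shares. Their median of -0.04 turned to 0.02 after quantile normalization. In CON, Tac2 fell by 0.45 ± 0.12, and Npy, Tac1 and Pdyn differed by 0.04 ± 0.16, -0.12 ± 0.12 and 0.07 ± 0.11 without passing. The difference between conditions passed for Tac1 (0.72 ± 0.18, limma adjusted p = 0.0103) and Tac2 (0.90 ± 0.19, adjusted p = 0.00297) and not for Npy or Pdyn (adjusted p = 0.0843 and 0.0882).

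The falling neuropeptide genes were led by Trh, the thyrotropin-releasing hormone precursor. It read 9.24, 9.41 and 9.33 at ZT7, against 10.53, 10.49 and 8.61 at ZT1, and fell by 1.18 ± 0.10 in 20 arrays (limma adjusted p = 4.66e-07). The narrow array lay below all ZT7 values, so the groups overlapped when it was kept, and the 24-array difference was -0.55 ± 0.52. In CON, Trh read 10.84, 11.06 and 10.69 at ZT7, against 10.16, 10.30 and 10.20 at ZT1, a rise of 0.65 ± 0.09. Gnrh1, which encodes the peptide that drives the gonadal axis, read 6.33, 6.37 and 6.32 at ZT7, against 7.25, 7.25 and 6.62 at ZT1, with no overlap. It fell by 0.91 ± 0.10 (limma adjusted p = 1.29e-05), while in CON it rose by 0.32 ± 0.09. Adcyap1, the PACAP precursor strong in the ventromedial nucleus, read 6.58, 6.76 and 6.87 at ZT7, against 7.48, 7.42 and 6.31 at ZT1, and fell by 0.72 ± 0.12. Oxt and Avp, the hormones of the magnocellular neurons, did not pass in TSR, with differences of 0.12 ± 0.07 and 0.17 ± 0.07, and rose in CON by 0.36 ± 0.07 and 0.48 ± 0.06. Of 11 tested markers of the suprachiasmatic nucleus, the central clock above the optic chiasm, 2 fell and 0 rose in TSR. Over all genes 9.54% fell and 2.27% rose there. After quantile normalization of the 20 arrays 1 of these markers fell. In CON 7 of the 11 rose and 0 fell, against 4.48% and 8.96% of all genes. Vipr2, the receptor through which that nucleus synchronizes, read 6.32, 6.14 and 6.59 at ZT7, against 7.02, 6.92 and 6.90 at ZT1 in TSR. All its ZT7 values were below all ZT1 values, and it fell by 0.62 ± 0.12 (limma adjusted p = 0.00351). Six3, a homeobox factor, fell by 0.48 ± 0.15. The mean level of the suprachiasmatic markers ran between 6.50 and 6.53 in TSR at ZT7, between 6.40 and 6.77 in TSR at ZT1, between 7.18 and 7.25 in CON at ZT7 and between 6.79 and 6.87 in CON at ZT1. Their part in the clock gene results that follow was not tested.

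Of 15 tested core clock genes 2 fell, 0 rose and 13 did not pass in TSR in 20 arrays, against 9.54% and 2.27% of all genes, so the share that fell was near that of all genes. The list median was -0.16, and there were 7 rises and 0 falls in CON (4.48% and 8.96% of all genes) with a median of 0.20. After quantile normalization of the 20 arrays 2 rose and 1 fell in TSR, and with all 24 arrays 0 passed and the median was 0.27. Per1, a light- and clock-induced repressor with the E-box shown above, read 7.57, 7.59 and 7.67 at ZT7, against 8.02, 8.08 and 6.96 at ZT1 in TSR. Its fall of 0.44 ± 0.09 (limma adjusted p = 0.00458) rests on the 2 typical ZT1 arrays, since the narrow array lay below all ZT7 values. In CON, Per1 read 8.25, 8.36 and 8.07 at ZT7, against 7.44, 7.74 and 7.62 at ZT1, and rose by 0.63 ± 0.08. The TSR change minus the CON change was -1.07 ± 0.12 (limma adjusted p = 6.89e-06). Cry2, a cryptochrome repressor, fell by 0.27 ± 0.07 in TSR with 20 arrays, and had a difference of 0.36 ± 0.40 with 24. Bhlhe41, an E-box repressor that carries an E-box itself, read 7.33, 7.48 and 7.42 at ZT7, against 8.07, 8.10 and 6.38 at ZT1, and fell by 0.68 ± 0.11 (limma adjusted p = 0.000898). It was the only 1 of 16 tested clock output genes to pass in TSR.

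Dbp, the D-box activator, read 8.43, 8.42 and 8.46 at ZT7, against 8.71, 8.63 and 7.92 at ZT1 in TSR. It read 9.30, 9.31 and 9.12 at ZT7, against 8.35, 8.38 and 8.29 at ZT1 in CON. The TSR difference of -0.24 ± 0.09 did not pass (limma adjusted p = 0.0736), the CON rise of 0.90 ± 0.08 did (adjusted p = 1.65e-07), and the difference between them was -1.14 ± 0.11 (adjusted p = 1.94e-06). Nr1d1, the REV-ERB alpha repressor, read 9.98, 9.97 and 9.97 at ZT7, against 10.22, 10.05 and 8.32 at ZT1 in TSR. It read 10.80, 10.75 and 10.79 at ZT7, against 10.02, 10.10 and 9.96 at ZT1 in CON. Its TSR difference was -0.16 ± 0.06, its CON rise 0.75 ± 0.05, and the difference between them -0.92 ± 0.08 (limma adjusted p = 2.04e-07). Per2, the second Period gene, read 7.05, 6.93 and 7.08 at ZT7, against 7.17, 7.28 and 6.95 at ZT1 in TSR, with overlapping groups. In CON, Per2 read 7.48, 7.62 and 7.66 at ZT7, against 7.02, 6.88 and 7.05 at ZT1, a rise of 0.60 ± 0.08 that exceeded the TSR difference of -0.21 ± 0.09 (difference between them -0.81 ± 0.12, limma adjusted p = 0.000194). Ciart, a repressor with 3 E-boxes in the promoter shown, differed by -0.21 ± 0.11 in TSR and rose by 0.74 ± 0.10 in CON. Per3, with its pair of D-boxes, differed by -0.16 ± 0.07 in TSR and rose by 0.49 ± 0.06 in CON, and the difference between conditions passed for both (limma adjusted p = 0.000192 and 0.000133). In all, the TSR change was below the CON change for 8 core clock genes and above it for 0 in 20 arrays, against 9.97% and 6.07% of all genes. With all 24 arrays the limma adjusted p of this difference for Dbp, Nr1d1, Per1 and Per2 was 0.812, 0.931, 0.931 and 0.162.

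Arntl and Clock, of the positive arm of the clock, did not pass in either condition. Arntl differed by -0.16 ± 0.12 in TSR and -0.18 ± 0.11 in CON, and Clock by 0.18 ± 0.09 and 0.03 ± 0.08. Nr1d2, the REV-ERB beta gene, and Rorb, an activator at ROR elements, differed by 0.14 ± 0.10 and -0.03 ± 0.09 in TSR. Cry1 differed by -0.28 ± 0.10 (limma adjusted p = 0.0794) in TSR and 0.15 ± 0.09 in CON. Tef and Hlf, relatives of Dbp, and Nfil3, which competes with them at D-boxes, differed by -0.09 ± 0.08, -0.12 ± 0.10 and -0.13 ± 0.12 in TSR, and Bhlhe40, the closest relative of Bhlhe41, by 0.01 ± 0.11.

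Both cold-inducible RNA-binding protein genes tested fell in TSR and rose in CON. Cirbp, which is raised by mild cooling, read 7.99, 8.06 and 8.20 at ZT7, against 8.64, 8.58 and 8.99 at ZT1 in TSR. Its groups did not overlap with the narrow array kept, and it fell by 0.52 ± 0.09 (limma adjusted p = 0.00157). In CON it read 8.84, 8.89 and 8.56 at ZT7, against 8.16, 8.15 and 8.11 at ZT1, and rose by 0.63 ± 0.08. The difference between the conditions was -1.15 ± 0.12 in 20 arrays (limma adjusted p = 4.07e-06) and -1.27 ± 0.26 in 24 (adjusted p = 0.0533). Rbm3, the other cold-shock gene, read 10.30, 10.33 and 10.41 at ZT7, against 10.65, 10.74 and 8.21 at ZT1 in TSR, and fell by 0.35 ± 0.07, whereas the 24-array difference was 0.48 ± 0.63. In CON it rose by 0.42 ± 0.06, and its 2 other probe sets differed by -0.38 and -0.34 in TSR. The sources used here give no body temperatures.

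**Figure D2:**
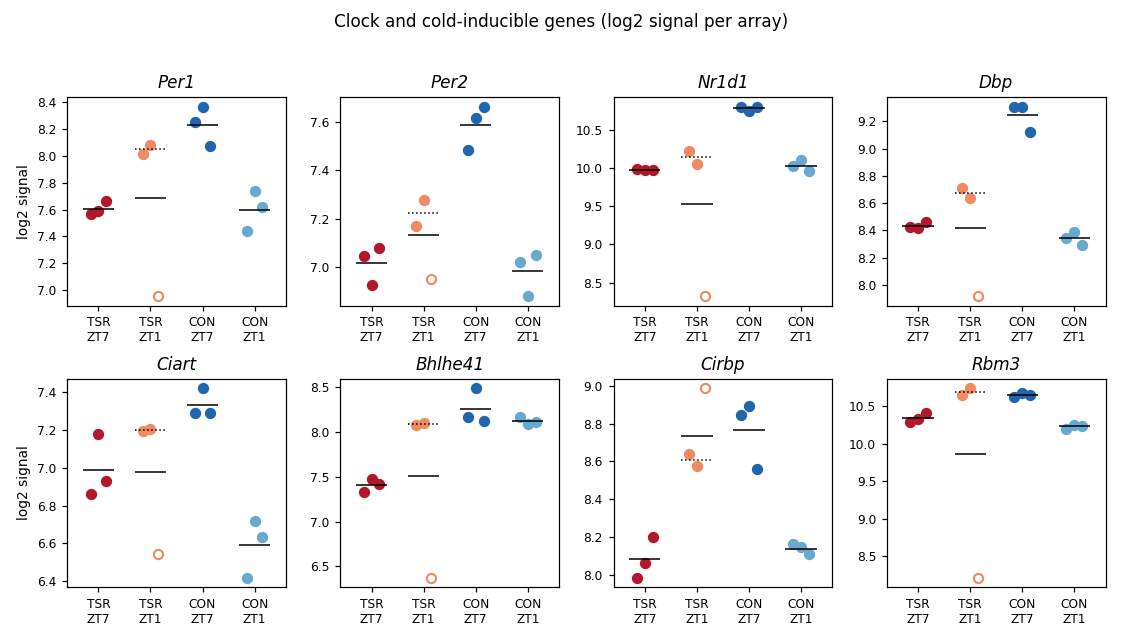
Log2 signal (vertical axis, a separate scale in each panel) of 6 clock genes and 2 cold-inducible genes in each array of TSR ZT7, TSR ZT1, CON ZT7 and CON ZT1, from left to right. Filled circles are arrays, the open circle is the narrow TSR ZT1 array, solid lines are means of 3 arrays and the dotted line is the mean of the other 2 TSR ZT1 arrays. The CON ZT7 arrays lie above the CON ZT1 arrays in every panel but that of Bhlhe41, and the 3 TSR ZT7 arrays lie below the 2 filled TSR ZT1 arrays in all 8.

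The largest falls in TSR were in genes of secreted plasma proteins. All 6 tested members of that list fell in 20 arrays, against 9.54% of all genes, with a median of -1.32. In CON 5 of the 6 rose, against 4.48% of all genes. Trf, 1 of the 6, is also made by oligodendrocytes and stands in the myelin list below. Alb, albumin, with 2 D-boxes in the promoter shown, read 7.69, 7.56 and 7.69 at ZT7, against 10.17, 9.65 and 7.31 at ZT1 in TSR. In CON, Alb read 8.09, 8.53 and 8.15 at ZT7, against 5.86, 5.84 and 5.51 at ZT1. In TSR it fell by 2.26 ± 0.15 (limma adjusted p = 2.84e-08, 20 arrays), in CON it rose by 2.52 ± 0.13, and the difference between them was -4.78 ± 0.20 (adjusted p = 5.36e-12). The TSR difference in all 24 arrays was -1.40 ± 0.47 and the difference between conditions -3.91 ± 0.66 (limma adjusted p = 0.0207). Apoa1, the main protein of high-density lipoprotein, read 6.55, 6.72 and 7.01 at ZT7, against 8.45, 8.41 and 7.07 at ZT1 in TSR, with no overlap. It fell by 1.67 ± 0.16 (limma adjusted p = 4.32e-06), and rose in CON by 1.44 ± 0.15. Apoa2 fell by 0.98 ± 0.12 and Apoc3 by 0.88 ± 0.12, both with no overlap between times in TSR. Serpina1c, an alpha-1-antitrypsin gene, read 6.04, 6.43 and 6.08 at ZT7, against 8.93, 8.90 and 5.65 at ZT1 in TSR, and 7.31, 7.85 and 7.04 at ZT7, against 3.25, 4.84 and 4.28 at ZT1 in CON. It has near-identical neighbours in the mouse genome, so the signal may be shared between copies, and its CON ZT1 values lie under the filter level. Without the narrow TSR ZT1 array alone, the 4 genes that fell at an adjusted p under 0.05 were Alb, Apoa1, Serpina1c and Rbp4, the retinol carrier of plasma, which was named after its values were seen and fell by 1.22 ± 0.18 in that fit (limma adjusted p = 0.00861). Ttr, the thyroid hormone carrier made by choroid plexus, read 6.56, 6.41 and 6.48 at ZT7, against 7.06, 6.92 and 6.65 at ZT1 in TSR, and fell by 0.50 ± 0.15, while it rose by 1.33 ± 0.13 in CON.

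These genes are made mainly by liver or choroid plexus, and RNA from outside the neural tissue and low expression within it cannot be told apart here. The mean level of 14 measured plasma protein genes ran between 5.94 and 5.97 in TSR at ZT7, between 6.28 and 7.07 in TSR at ZT1, between 6.27 and 6.34 in CON at ZT7 and between 5.50 and 5.66 in CON at ZT1. The other 8 of the 14 averaged under the filter and were not tested. Of 3 tested choroid plexus markers 2 fell in TSR and 0 rose, against 9.54% and 2.27% of all genes. There was 1 fall after quantile normalization of the 20 arrays.

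**Figure D3:**
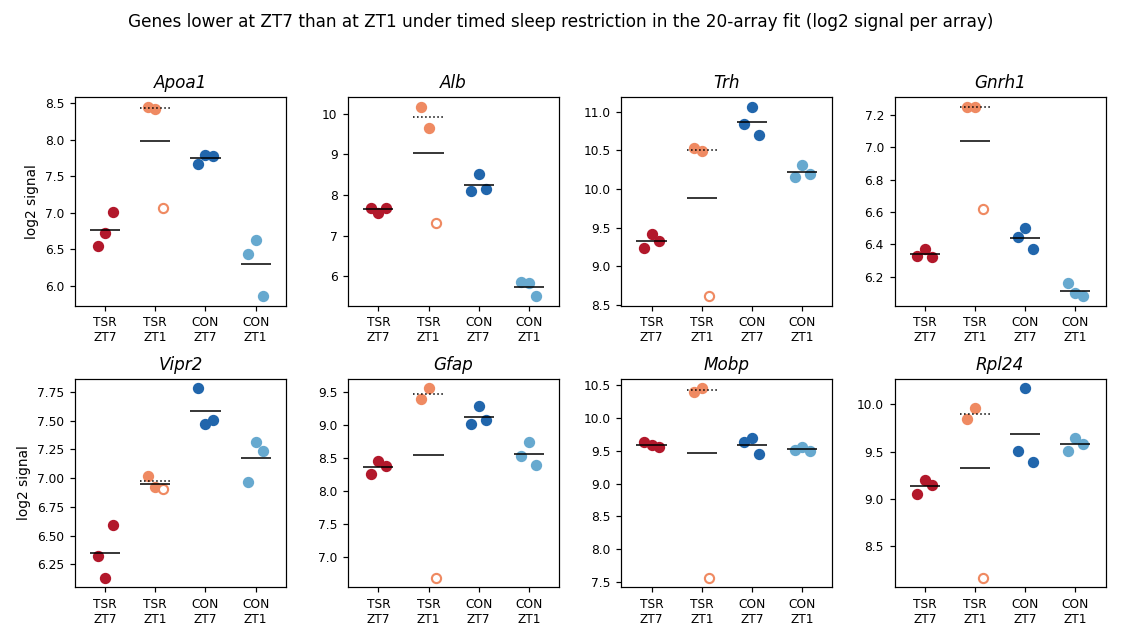
Log2 signal (vertical axis, a separate scale in each panel) of 8 genes in each array of TSR ZT7, TSR ZT1, CON ZT7 and CON ZT1, from left to right. Filled circles are arrays, the open circle is the narrow TSR ZT1 array, solid lines are means of 3 arrays and the dotted line is the mean of the other 2 TSR ZT1 arrays. The 3 TSR ZT7 arrays lie below the 2 filled TSR ZT1 arrays in all 8 panels, and the open circle lies below the TSR ZT7 arrays for Alb, Trh, Gfap, Mobp and Rpl24.

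Markers of oligodendrocytes and myelin fell in the fit that keeps the 2 typical ZT1 arrays. Of 17 tested 14 fell and 0 rose in 20 arrays, against 9.54% and 2.27% of all genes, with a median of -0.52. In CON 6 fell and 0 rose, against 8.96% and 4.48% of all genes. With all 24 arrays 0 passed and the median was 0.12. Mobp, a structural myelin protein, read 9.63, 9.59 and 9.56 at ZT7, against 10.40, 10.45 and 7.57 at ZT1, and fell by 0.83 ± 0.10 (limma adjusted p = 3.14e-05). The narrow array was the lowest of the 6 here. Mag, the myelin-associated glycoprotein, read 8.61, 8.69 and 8.81 at ZT7, against 9.28, 9.27 and 6.46 at ZT1, a fall of 0.57 ± 0.08. Fa2h, a fatty acid hydroxylase of myelin lipids, fell by 0.85 ± 0.09 and Sox10, the master regulator of the lineage, by 0.69 ± 0.11. In CON, Mobp and Mag differed by 0.07 ± 0.09 and 0.05 ± 0.08, and the TSR change was below the CON change for 8 of the 17 and above it for 0. The count of falls was 14 after quantile normalization and 13 after centring of the 20 arrays. Among 12 astrocyte markers 5 fell and 2 rose, against 9.54% and 2.27% of all genes (3 and 2 after quantile normalization of the 20 arrays), with a median of -0.22 that was 0.38 with all 24 arrays. Gfap, the intermediate filament of reactive and fibrous astrocytes, read 8.26, 8.46 and 8.39 at ZT7, against 9.40, 9.56 and 6.69 at ZT1, and fell by 1.11 ± 0.14 (limma adjusted p = 9.62e-05), while it rose by 0.57 ± 0.13 in CON. Gjb6, an astrocyte gap junction protein, fell by 0.57 ± 0.13 and S100b, a calcium-binding protein, by 0.40 ± 0.11. Fabp7, an astrocytic carrier of fatty acids known to cycle with the day in mouse brain, read 6.71, 6.98 and 6.76 at ZT7, against 6.50, 6.33 and 6.05 at ZT1, and rose by 0.40 ± 0.11 with no overlap.

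Of 20 tested genes of cholesterol synthesis 6 fell and 0 rose in TSR, against 9.54% and 2.27% of all genes, with a median of -0.19, and 0 passed in CON in limma. Msmo1, a sterol methyl oxidase, read 10.75, 10.67 and 10.76 at ZT7, against 11.20, 11.18 and 8.94 at ZT1, and fell by 0.46 ± 0.08 (limma adjusted p = 0.00135). Sqle, squalene epoxidase, fell by 0.44 ± 0.09, Sc5d, a sterol desaturase, by 0.43 ± 0.09, and Insig1, the sterol sensor that restrains the pathway, by 0.38 ± 0.10. The median of the list was 0.24 with all 24 arrays. Ribosomal protein genes fell in 22 of 49 tested members and rose in 0, against 9.54% and 2.27% of all genes. The median was -0.26, and 0.11 with all 24 arrays. In CON 6 of the 49 rose and 1 fell, against 4.48% and 8.96% of all genes, with a median of 0.13. Rpl24, of the large subunit, read 9.05, 9.19 and 9.15 at ZT7, against 9.84, 9.96 and 8.16 at ZT1 in TSR, and fell by 0.77 ± 0.16 (limma adjusted p = 0.00447). Its 2 other probe sets differed by -0.49 and -0.52. Rps15 and Rps18, of the small subunit, fell by 0.58 ± 0.09 and 0.47 ± 0.08, and Rpl8 by 0.59 ± 0.13. The 2 other probe sets of Rps15 differed by -0.22, which did not pass (limma adjusted p = 0.0645), and by -0.39. Genes of this family have many pseudogenes, so a probe set may read more than 1 copy. The TSR change was below the CON change for 29 of the 49 and above it for 0, and quantile normalization of the 20 arrays left 16 falls and 0 rises in TSR. Of 70 respiratory chain genes 3 fell and 0 rose, against 9.54% and 2.27% of all genes. Cox4i1 of cytochrome oxidase fell by 0.25 ± 0.08. After quantile normalization 3 of the 70 rose and 1 fell, so no direction of that list is given.

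Neuron markers were split. Of 15 tested 2 rose and 3 fell in TSR, against 2.27% and 9.54% of all genes, with a median of 0.07, and 7 rose and 2 fell after quantile normalization of the 20 arrays. Nefl, the light neurofilament, read 9.47, 9.51 and 9.60 at ZT7, against 9.04, 9.12 and 7.67 at ZT1, a rise of 0.44 ± 0.08 (limma adjusted p = 0.00278). Snap25, of the synaptic fusion complex, rose by 0.24 ± 0.06, while Syp, the vesicle protein synaptophysin, fell by 0.30 ± 0.06 and Slc32a1, the vesicular GABA transporter, by 0.65 ± 0.16. In CON 10 of the 15 fell and 0 rose, against 8.96% and 4.48% of all genes. Glucocorticoid-responsive genes showed 2 falls and 0 rises among 14 (1 fall after quantile normalization of the 20 arrays), near the 9.54% of all genes that fell, in Sgk1, a kinase, by 0.39 ± 0.11 and Fkbp5, a receptor co-chaperone, by 0.29 ± 0.09. Tsc22d3, the glucocorticoid-induced leucine zipper, differed by -0.09 ± 0.11, and none of the 3 differed between conditions at an adjusted p under 0.05 in limma (0.191, 0.404 and 0.316). Motile cilium genes fell in 2 of 13 and rose in 0 in TSR, near the 9.54% of all genes that fell, with a median of -0.04. In CON 12 of 13 rose, against 4.48% of all genes, with a median of 0.64. Dnah9, an axonemal dynein of ependymal cilia, read 6.29, 6.18 and 6.21 at ZT7, against 6.60, 6.61 and 6.50 at ZT1 in TSR, and fell by 0.38 ± 0.10, against a rise of 0.57 ± 0.09 in CON. Cfap44 fell by 0.31 ± 0.09 in TSR and rose by 0.78 ± 0.08 in CON.

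**Figure D4:**
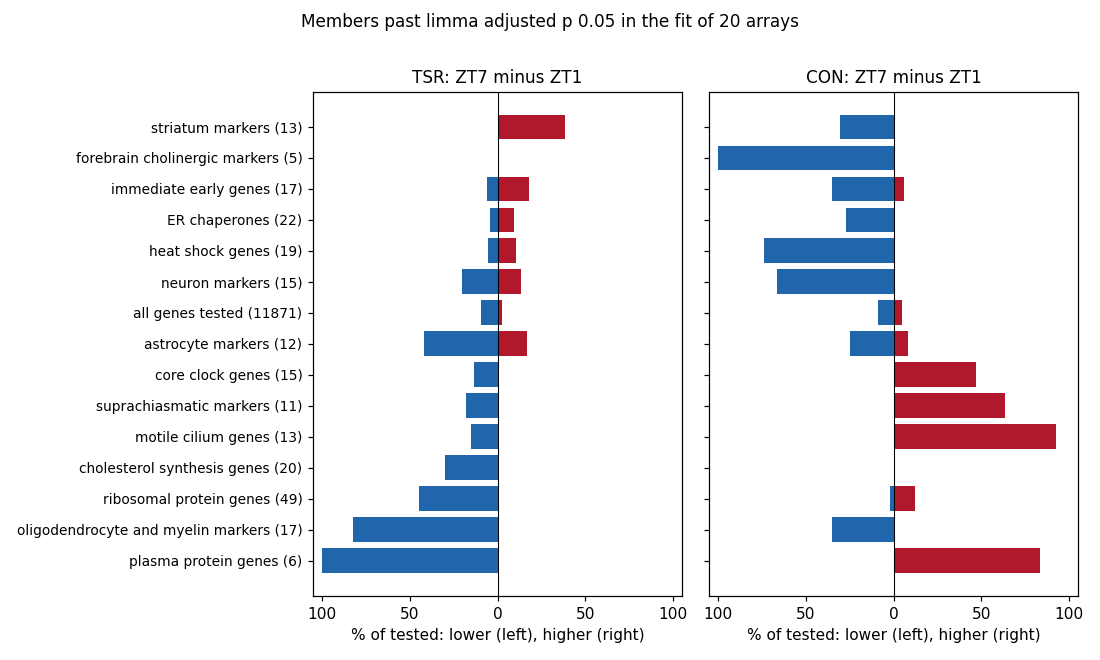
Share of the tested members of each gene list (horizontal axes, percent; number tested in brackets) past a limma adjusted p of 0.05 in the fit of 20 arrays, lower at ZT7 in blue to the left and higher in red to the right. The left panel gives TSR and the right panel CON, with the share over all 11871 genes as a separate bar. In TSR the plasma protein, myelin and ribosomal protein lists fell in 6 of 6, 14 of 17 and 22 of 49 members, and in CON core clock, suprachiasmatic and motile cilium lists rose in 7 of 15, 7 of 11 and 12 of 13.

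Whether the interval changed expression differently under restriction was tested directly. With all 24 arrays the TSR change differed from the CON change for 17 genes (0.143%), 11 higher (0.0927%) and 6 lower (0.0505%), and for 1903 with 20 arrays (16%), 720 higher (6.07%) and 1183 lower (9.97%). Quantile normalization of the 20 arrays gave 1214 higher and 1180 lower. Of the 1402 genes that changed in TSR, 859 also differed from the CON change, 239 changed in CON in the opposite direction, 70 changed there in the same direction and 1093 did not pass there. The opposite changes were 94 rises in TSR with falls in CON and 145 falls in TSR with rises in CON. Across the 11871 genes the Spearman correlation of the TSR and CON changes was -0.18, where all genes of a change share the same arrays. In CON alone 8 genes passed with all 24 arrays (0.0674%), 4 in each direction (0.0337%), and 1596 with 20 arrays (13.4%), 532 higher (4.48%) and 1064 lower (8.96%).

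For some of these genes the TSR difference did not pass while the CON groups lay far apart. Slc5a7, the choline transporter of cholinergic neurons, read 9.05, 8.72 and 8.91 at ZT7, against 8.67, 8.66 and 6.18 at ZT1 in TSR. In CON it read 5.87, 5.69 and 5.63 at ZT7, against 8.61, 8.40 and 8.19 at ZT1. The TSR difference was 0.23 ± 0.13, in CON it fell by 2.67 ± 0.11, and the difference between them was 2.90 ± 0.17 (limma adjusted p = 1e-09, 20 arrays). The TSR difference in all 24 arrays was 1.06 ± 0.41 and the difference between conditions 3.73 ± 0.58 (limma adjusted p = 0.0149). Slc18a3, the vesicular acetylcholine transporter, read 8.53, 8.51 and 8.42 at ZT7, against 8.39, 8.29 and 6.53 at ZT1 in TSR, and 6.20, 6.14 and 6.65 at ZT7, against 8.27, 7.92 and 8.07 at ZT1 in CON. Lhx8, a homeobox factor of basal forebrain cholinergic neurons named after its values were seen, differed by 0.10 ± 0.13 in TSR and fell by 1.01 ± 0.12 in CON. All 5 tested members of the forebrain cholinergic list fell in CON, against 8.96% of all genes, and 0 passed in TSR. The mean level of the list ran between 8.01 and 8.08 in TSR at ZT7 and between 6.51 and 7.93 in TSR at ZT1. In CON it ran between 5.96 and 6.18 at ZT7 and between 7.56 and 7.69 at ZT1. These neurons lie in the basal forebrain rather than the mediobasal hypothalamus, and the part of the tissue taken with each sample was not tested. Dach1, a transcriptional cofactor, and Esrrg, an orphan nuclear receptor, fell in CON by 1.11 ± 0.10 and 0.72 ± 0.11. Dach1 differed by 0.30 ± 0.11 in TSR without passing, and Esrrg rose there by 0.40 ± 0.12.

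**Figure D5:**
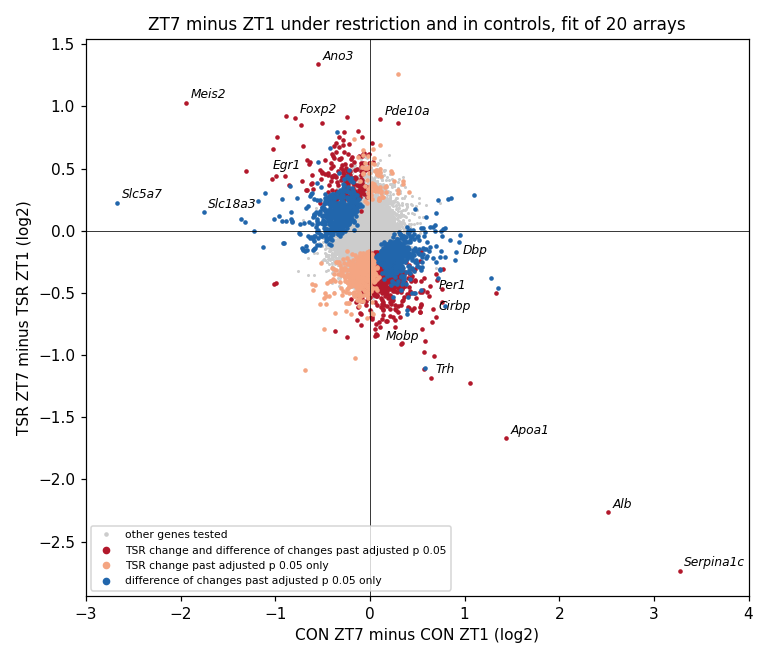
Each point is 1 of 11871 genes, with the CON ZT7 minus ZT1 difference on the horizontal axis and the TSR ZT7 minus ZT1 difference on the vertical axis, both in log2 units from the fit of 20 arrays. Colours mark genes past an adjusted p of 0.05 for the TSR change, for the difference of the 2 changes, or both; Meis2 (TSR 1.03, CON -1.94), Alb (TSR -2.26, CON 2.52) and Slc5a7 (TSR 0.23, CON -2.67) lie far from the diagonal.

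The remaining large falls with no overlap between TSR times were not in any list. Arl1, a small GTPase of the Golgi, read 9.06, 9.06 and 8.83 at ZT7, against 9.81, 9.86 and 9.86 at ZT1, and fell by 0.85 ± 0.23 (limma adjusted p = 0.0203). Thyn1 read 7.01, 6.89 and 6.61 at ZT7, against 7.47, 7.58 and 7.86 at ZT1, and fell by 0.69 ± 0.15. In both genes the narrow array was at or near the top of the 6. Map3k15, a stress-activated kinase of the ASK family, fell by 0.69 ± 0.15 in TSR and rose by 0.70 ± 0.13 in CON. Prdx1, a peroxide-reducing enzyme, fell by 0.73 ± 0.18, and Mrps18c, of the mitochondrial ribosome, by 0.67 ± 0.18. The other probe set of Prdx1 differed by -0.565, which did not pass (limma adjusted p = 0.076). Rhpn2, Tm4sf5 and Fam183b fell by 0.77 ± 0.13, 0.69 ± 0.12 and 0.63 ± 0.19.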

How the data were processed

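RNA of mediobasal hypothalamus was hybridised to 24 Affymetrix arrays. Per the labels the arrays form 8 groups of 3 mice, 2 conditions at 4 times. The authors deposited log2 probe-set signals, made with Affymetrix Expression Console per the submitters' processing notes. Sources used here give neither its version nor the summarisation. Of 853344 cells, 2747 had a misplaced decimal point, which was restored, and 79 were set missing, 78 of them because they read as day numbers of a calendar. Probe sets with 1 symbol (21789; 1621 had several and 12146 none) gave 19938 genes, 1 probe set a gene by highest mean, and 11871 had a mean over the 40th percentile of 5.86. Means of all 8 groups were fitted together in limma 3.58.1 (R 4.3.3) with moderated trended variances. P-values were adjusted by Benjamini and Hochberg over all 11871 genes. The fit was tested on simulated data. Each fit was run with 24 arrays, with 23 (without the third TSR ZT1 array) and with the 20 whose interquartile range exceeds 2.5. Alternatives were array weights, normalization, filter, probe-set choice, moderation, deposited decimals and leaving out each array. Alternatives within the 20 arrays were chosen after seeing the data. Genes named were the largest changes with no overlap between the times, the smallest p-values for the difference between conditions, up to 4 members past the threshold in each list, and a set of clock, stress and peptide genes. Members and lists were chosen with earlier results of these data known. With 3 arrays against 3 the smallest exact permutation p for a single value is 0.1, so no such test is given.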

Additional observations from a re-analysis of the deposited data

Results flagged for a closer look

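The change between ZT7 and ZT1 differed between TSR and CON, by a test of the difference itself, for 17 genes with all 24 arrays and for 1903 with 20. The values here are the TSR change minus the CON change in log2 units with all 24 arrays, each at a limma adjusted p under 0.05. It was 3.73 for Slc5a7, 3.58 for Meis2, 2.51 for Slc18a3, 1.83 for Foxp2 and 1.59 for Tcf7l2. For Dach1 it was 1.51, for Lhx8 1.42, for Esrrg 1.33 and for Egr1 1.05. On the negative side it was -4.92 for Serpina1c, -3.91 for Alb, -2.65 for Apoa1, -1.72 for Ttr and -1.29 for Map3k15. Slc5a7, Slc18a3 and Lhx8 belong to the forebrain cholinergic markers and Meis2 to the striatal markers. The mean levels of these lists include these genes, and the part of either region was not tested.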

How the results depend on the processing

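With all 24 arrays limma gave 1 gene for TSR, 353 at an unadjusted p under 0.05. The count was 1402 without the 4 narrow arrays, 4419 with array weights, 8 after quantile normalization, 1326 after it in the 20 arrays, and 0 without the filter, with the filter at the 60th percentile or with only the 6 arrays. Acta2 averaged under the 60th percentile filter of 6.97 log2 units, so it was not tested in that setting. Leaving out each array gave 0 to 5. The 20-array count ran between 242 and 885 without 1 of its 5 TSR arrays: 242 and 313 without TSR ZT1 replicates 1 and 2, and 780, 812 and 885 without TSR ZT7 replicates 1, 2 and 3. For the difference between conditions the count of 17 was 1903 in 20 arrays, 4295 with weights, 30 and 2394 after quantile normalization of 24 and 20 arrays, 9 at the 60th percentile filter, 2 with only the 12 arrays, and 0 to 25 leaving out each array (0 without TSR ZT7 replicate 1 or CON ZT1 replicate 1). The 20-array count of 1903 ran between 1060 and 2717, with 1060 and 1137 without TSR ZT1 replicates 1 and 2. The CON count of 8 was 1596 in 20 arrays, 2912 with weights, 2110 after quantile normalization of the 20, 1 at the 60th percentile filter, 3 with all probe sets, 2 without the trend, 3 with decimals as deposited, 627 with only the 6 CON arrays and 0 leaving out each array. Same-numbered arrays had correlations of -0.10, 0.03 and -0.08 in TSR and 0.02, 0.35 and -0.04 in CON. With 3 pairs per condition, and the narrow array among those of TSR, these values cannot settle whether the numbers pair samples. With the replicate block the counts were 1 for TSR, 9 for the difference between conditions and 2 for CON. In 20 arrays the block gave 1168 for TSR and 1801 for the difference. The median difference over all genes ran between -0.08 and 0.34.

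Some settings leave out the 4 narrow arrays, weight every array, or quantile normalize the 20 arrays. Each group had its own mean in the fit, so the TSR difference used only the TSR ZT7 and TSR ZT1 arrays. Leaving out the narrow TSR ZT1 array alone therefore gives the same differences as leaving out all 4. The median of -0.52 for the myelin markers was equal in both by construction. Whether the weights act through the narrow TSR ZT1 array was not tested. Values opposite in sign to the 24-array difference, and past a limma adjusted p of 0.05 in the setting named, follow. Without the narrow arrays, with weights, and after quantile normalization of the 20 arrays, in that order, they were -0.35, -0.37 and -0.24 for Rbm3, -0.83, -0.84 and -0.72 for Mobp, -0.57, -0.57 and -0.48 for Mag, -0.46, -0.46 and -0.36 for Msmo1, -0.44, -0.41 and -0.33 for Sqle, -0.43, -0.41 and -0.34 for Sc5d, -0.38, -0.39 and -0.28 for Insig1, -0.58, -0.59 and -0.47 for Rps15, -0.47, -0.48 and -0.35 for Rps18, -0.59, -0.59 and -0.51 for Rpl8, -0.39, -0.37 and -0.30 for Sgk1, -0.30, -0.29 and -0.19 for Syp, and -0.57, -0.55 and -0.47 for Gjb6. Without the narrow arrays and with weights they were -0.27 and -0.26 for Cry2, -0.35 and -0.37 for Jun, -0.40 and -0.39 for S100b, and -0.25 and -0.24 for Cox4i1. Per3, Nr1d1 and Dbp passed with weights alone, at -0.18, -0.13 and -0.22. Their 20-array differences were negative too but did not pass. Of 104 named genes tested, 80 passed in 20 arrays, of which 41 still did in the same direction without TSR ZT1 replicate 1 and 45 without TSR ZT1 replicate 2, 59, 63 and 68 without TSR ZT7 replicates 1, 2 and 3, and 74 with the replicate block or after quantile normalization. The number of arrays limits the precision, since the TSR ZT1 group rests on 2 arrays wherever the narrow one is left out.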

Other observations

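Among gene lists not described above, of 26 small nucleolar RNAs tested 2 fell and 0 rose in TSR in 20 arrays, no larger a share than the 9.54% of all genes that fell, and 5 rose in CON, against 4.48% of all genes. Of 10 microglial markers 0 passed in TSR in limma and 6 fell in CON, against 8.96% of all genes. Of 8 tanycyte and ependymal markers 1 rose and 2 fell in TSR, against 2.27% and 9.54% of all genes. In CON 4 of the 8 rose, against 4.48%. No oligodendrocyte precursor marker of 8, meningeal marker of 6 or arousal gene of 9 passed in TSR in limma. Kcnv1, Kctd6 and Cfap65, named after their values were seen, also differed between the conditions with all 24 arrays, by 1.45, 1.32 and -1.27 log2 units.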
